A study of Mus musculus with 64 samples.

Results

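Toll-like receptors are membrane proteins of innate immune cells that bind molecular patterns of microbes and of damaged cells. Those carried on the cell surface (Tlr1, Tlr2, Tlr4, Tlr5 and Tlr6) bind lipids, lipoproteins or flagellin, and those held in endosomes (Tlr3, Tlr7, Tlr8, Tlr9 and Tlr13) bind nucleic acids. A receptor that has bound its ligand recruits adaptors such as Myd88 or Ticam1, and these lead through kinases and ubiquitin ligases to NF-kappaB and the interferon regulatory factors. Microglia, the resident macrophages of the brain, are the main cells of the healthy brain parenchyma known to carry the family. The 10 receptor genes were taken by symbol from a table of 49671 mouse genes by a rule that names them and sets no threshold on their values, though the family was picked with earlier results of these data known. They were described as 5 surface and 5 endosomal receptors.

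The gene counts came from 64 total RNA libraries of microglia isolated from hippocampus or frontal cortex of male C57BL/6 mice (C57BL6/N in the study's methods), young adults with no transgene or drug named in the labels. Each of the 16 groups of 4 libraries was a region, a phase (Day or Night) and a condition (Soci, Cogn, Ctr0 or Ctr1), so that each region held 16 day and 16 night libraries. The animals lived under a reversed light cycle, and the study sampled microglia at 1 time in the light and 1 time in the dark phase. The labels name these samplings Day and Night, and do not define these words or explain the condition names. The study heads its comparison of light and dark phase in microglia as one of day and night, so Day is read as the light phase. The methods describe dissociation in the cold, a Percoll step and capture with CD11b beads, and CD11b is carried by border macrophages, monocytes and neutrophils as well as by microglia. The labels do not tie replicate numbers to separate animals, so the p-values measure the spread between these libraries, which may in part be technical. Total counts ran from 10.2 to 26.3 M per library in frontal cortex and from 11.6 to 84.5 M in hippocampus, and the gene Gm26917 held 19.2% to 52.2% of them.

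The cell type label was checked against 12 microglial markers, among them P2ry12, Tmem119 and Cx3cr1, whose summed level lay between 12927 and 27328 CPM (counts scaled to a common library total by TMM) in every library. Markers of border macrophages, the macrophages of the meninges and vessels, summed to between 110.2 and 491 CPM. Choroid plexus markers reached 2906 CPM in a hippocampal night library. Each receptor gene had more than 3 counts in every library and passed the count filter in both regions. The lowest count of all was 8 for Tlr8, and the lowest for Tlr7 was 1794. In bulk samples, fewer cells of a type and less RNA per cell cannot be told apart.

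The receptor genes lie on 7 chromosomes of GRCm38 and 2 pairs of them are neighbours. Tlr1 (ENSMUSG00000044827, chromosome 5, 64924679 to 64933563) and Tlr6 (ENSMUSG00000051498, chromosome 5, 64952031 to 64960097) lie 18467 bases apart on the minus strand. The longest identical run of their coding parts has 229 bases. It is shown here because a read that falls inside it has no unique place. How such reads were counted is not given in the sources used here. The counts of Tlr1 and Tlr6 are uncertain to at least that extent. The run lies at chr5:64925537-64925765 in Tlr1, coding bases 1468 to 1696 of 2385, and at chr5:64953828-64954056 in Tlr6, coding bases 1507 to 1735 of 2418. No capitals are used in it, since all its bases are shared.
Tlr1 and Tlr6 shared run: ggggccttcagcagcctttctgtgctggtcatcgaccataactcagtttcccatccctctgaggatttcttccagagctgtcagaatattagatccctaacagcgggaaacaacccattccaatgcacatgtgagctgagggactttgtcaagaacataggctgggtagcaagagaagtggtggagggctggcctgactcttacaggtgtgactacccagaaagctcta
Of windows of 100 bases, 259 were shared, which is 7.89% of the windows of the Tlr1 transcript and 7.09% of those of Tlr6. These are more windows than the run of 229 bases holds, so the transcripts share further identical sequence that is not shown. No other pair of the 10 genes shared a window of this length.

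Tlr7 (ENSMUSG00000044583, chromosome X, 167304929 to 167330558) and Tlr8 (ENSMUSG00000040522, chromosome X, 167242696 to 167264329) lie 40599 bases apart on the minus strand, while Tlr13 (ENSMUSG00000033777, chromosome X, 106143204 to 106160493) is on the plus strand of the same chromosome. The others are Tlr2 (ENSMUSG00000027995, chromosome 3, 83836272 to 83841767, minus), Tlr3 (ENSMUSG00000031639, chromosome 8, 45395665 to 45411080, minus), Tlr4 (ENSMUSG00000039005, chromosome 4, 66827584 to 66930284, plus), Tlr5 (ENSMUSG00000079164, chromosome 1, 182954788 to 182976044, plus) and Tlr9 (ENSMUSG00000045322, chromosome 9, 106222598 to 106226883, plus). An antisense gene, Gm45542, overlaps 381 exon bases of Tlr3. It had at most 13 counts in a library, and its counts came to 0.114% of those of Tlr3.

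RefSeq promoters of GRCm38.p6, from 250 bases before to 50 after the start, matched 8 of the 10 receptor genes, with 10 promoters in all. Tlr4 and Tlr7 had no entry. The promoters of Tlr13 and Tlr8, which were higher in day libraries, are shown beside those of Tlr9 and Tlr2, which did not pass the test. Capitals mark matches on either strand to a core of the ROR element (AGGTCA), a core of the PU.1 site (GAGGAA) or a core of the interferon response element (GAAANNGAA).
Tlr13, chrX:106143025-106143324, plus strand: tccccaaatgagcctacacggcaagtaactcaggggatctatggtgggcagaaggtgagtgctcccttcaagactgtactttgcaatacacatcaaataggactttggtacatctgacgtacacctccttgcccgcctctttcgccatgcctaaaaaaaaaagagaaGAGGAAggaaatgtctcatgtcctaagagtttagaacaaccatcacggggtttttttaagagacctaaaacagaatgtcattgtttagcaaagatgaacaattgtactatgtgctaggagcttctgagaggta
Tlr8, chrX:167264280-167264579, minus strand: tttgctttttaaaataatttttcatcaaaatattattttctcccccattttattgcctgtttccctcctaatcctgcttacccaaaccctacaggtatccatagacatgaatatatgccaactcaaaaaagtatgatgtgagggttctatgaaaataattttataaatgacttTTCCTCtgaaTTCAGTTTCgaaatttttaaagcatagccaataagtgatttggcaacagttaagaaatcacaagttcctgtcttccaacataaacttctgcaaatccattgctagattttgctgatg
Tlr9, chr9:106222348-106222647, plus strand: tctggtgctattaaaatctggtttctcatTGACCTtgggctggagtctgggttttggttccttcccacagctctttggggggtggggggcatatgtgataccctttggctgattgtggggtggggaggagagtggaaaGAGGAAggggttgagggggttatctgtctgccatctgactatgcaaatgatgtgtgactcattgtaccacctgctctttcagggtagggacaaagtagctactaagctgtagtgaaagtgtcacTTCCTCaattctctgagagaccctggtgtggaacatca
Tlr2, chr3:83841559-83841858, minus strand: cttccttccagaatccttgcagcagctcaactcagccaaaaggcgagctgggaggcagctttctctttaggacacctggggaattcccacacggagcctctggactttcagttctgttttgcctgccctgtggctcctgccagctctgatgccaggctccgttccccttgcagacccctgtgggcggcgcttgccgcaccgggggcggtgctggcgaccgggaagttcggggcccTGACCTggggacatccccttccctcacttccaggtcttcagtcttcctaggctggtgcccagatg
Of all 32851 mouse promoters of this length, 16.3% held the ROR core, 28.3% the PU.1 core, 8.56% the interferon core and 7.15% the E-box CACGTG. The PU.1 core was found in the promoters of Tlr13, Tlr8, Tlr9 and Tlr1, so it was present in genes on both sides of the test. The ROR core was found in those of Tlr2, Tlr5 and Tlr9, and the E-box in a promoter of Tlr1. A pair of overlapping interferon cores stood in a promoter of Tlr6 and 1 in that of Tlr8. These are matches of letters in a short window and were not tested as binding sites.

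Day was compared with night in each region, with conditions pooled, to ask which receptor genes differed between the phases. Of the 10, 6 were higher in day libraries in hippocampus, and the same 6 were higher in frontal cortex, namely Tlr7, Tlr8, Tlr13, Tlr4, Tlr3 and Tlr6. None was lower. They were 4 of the 5 endosomal and 2 of the 5 surface receptors. Of all 15527 genes tested in hippocampus, 42.2% passed the same threshold (edgeR quasi-likelihood F test, Benjamini-Hochberg adjusted p under 0.05) with 23.4% higher and 18.8% lower in day. Of 14975 in frontal cortex 41.8% passed, with 20.6% higher and 21.3% lower. The median log2 fold change of the 10 was 0.40 in hippocampus and 0.29 in frontal cortex, against 0.02 and -0.02 over all genes tested. It was 0.67 and 0.64 for the endosomal and 0.12 and 0.11 for the surface receptors. For the microglial markers the median was 0.29 and 0.22, and for the border macrophage markers 0.68 and 0.39.

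**Figure D1:**
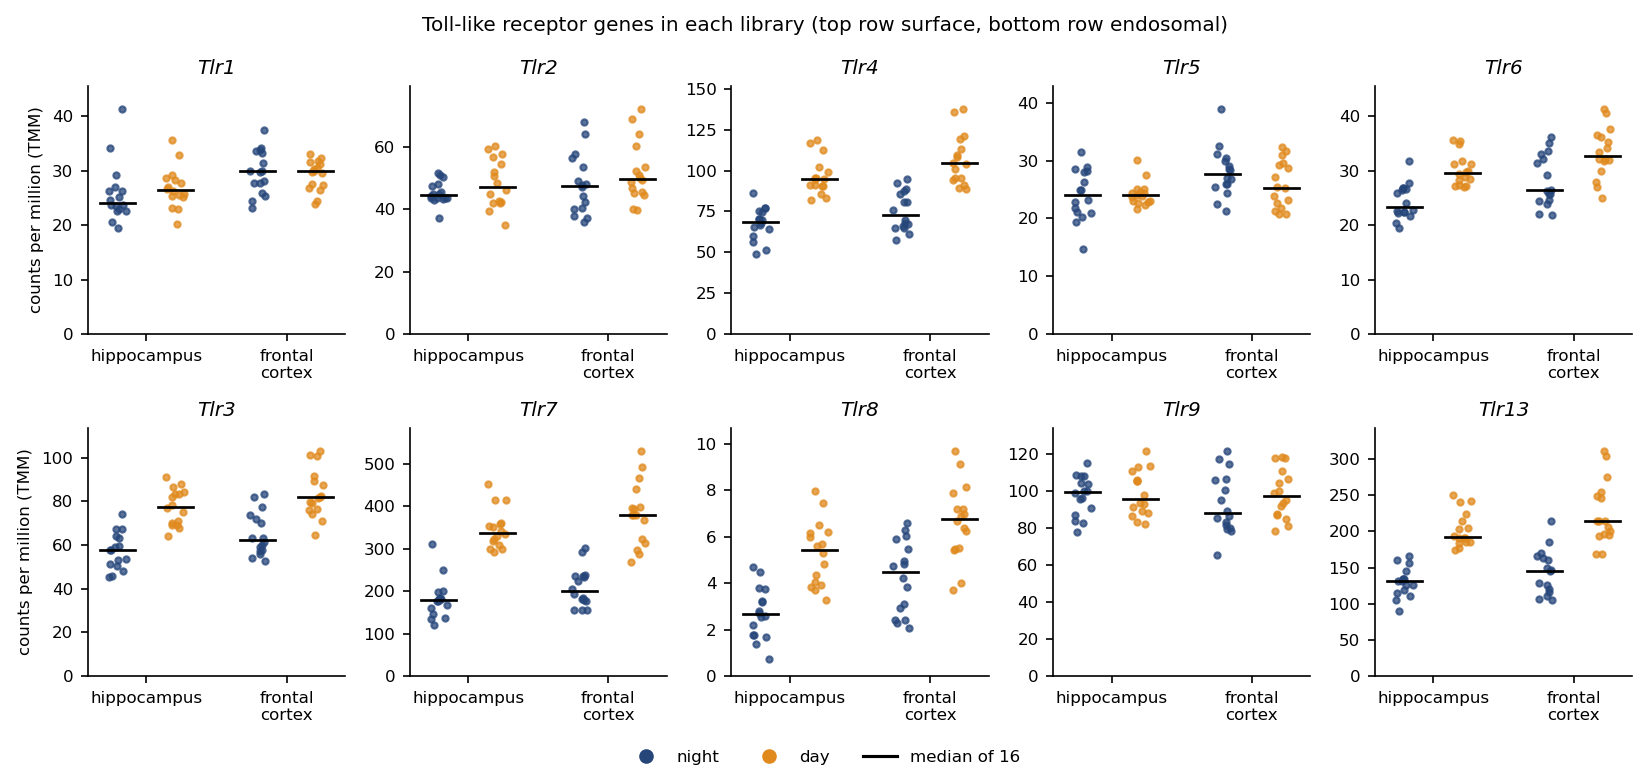
Level of each receptor gene in each of the 64 libraries in CPM (y axis, from 0, with its own scale in each panel), night in blue and day in orange, hippocampus at the left and frontal cortex at the right of each panel, with a line at the median of 16 libraries. The day and night points of Tlr13 in hippocampus do not overlap (highest night library 166 CPM, lowest day library 175 CPM), while the ranges of Tlr9, Tlr2, Tlr1 and Tlr5 overlap. For Tlr2 in hippocampus 6 of 16 day libraries lie above the highest night library.

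Tlr7 and Tlr8 recognise single-stranded RNA in endosomes, and Tlr7 had the highest level of the family. In hippocampus Tlr7 had between 121 and 311 CPM in night libraries (median 179) and between 291 and 452 CPM in day libraries (median 338). In frontal cortex it had between 156 and 302 CPM at night (median 199.7) and between 268 and 531 CPM in day (median 379). In each region a few libraries of the phases met, with 12 of 16 day libraries in hippocampus and 13 of 16 in frontal cortex above the highest night library. The log2 fold change was 0.96 ± 0.09 (SE, n = 16 per phase) in hippocampus (edgeR, adjusted p = 3.2e-09) and 0.86 ± 0.10 in frontal cortex (edgeR, adjusted p = 7.8e-08).

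Tlr8 had the lowest counts of the family. It had between 0.745 and 4.70 CPM in night libraries of hippocampus (median 2.65) and between 3.26 and 7.96 CPM in day libraries (median 5.44). The range in frontal cortex was 2.08 to 6.60 CPM at night (median 4.47) and 3.70 to 9.70 CPM in day (median 6.78). The phases overlapped more than for Tlr7, with 10 and 9 of 16 day libraries above the highest night library. The log2 fold change was 0.99 ± 0.17 (SE, n = 16 per phase) in hippocampus (edgeR, adjusted p = 1.9e-05) and 0.64 ± 0.16 in frontal cortex (edgeR, adjusted p = 0.00173). Both calls ended when the score of 10 border macrophage markers, which were themselves higher in day (10 of 10 in hippocampus and 6 of 10 in frontal cortex), was added to the fit, with Tlr8 at 0.05 and 0.00. With the scores of 7 cell types other than microglia, border macrophages again among them, Tlr8 was at 0.05 and -0.45 and did not pass in either region.

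Tlr13, an endosomal receptor of rodents that recognises bacterial ribosomal RNA, had between 90.1 and 166 CPM in night libraries of hippocampus (median 132) and between 175 and 250.3 CPM in day libraries (median 192). Every day library lay above every night library there. In frontal cortex the range was 105 to 215 CPM at night (median 146) and 169 to 312 CPM in day (median 215), and 6 of 16 day libraries lay above the highest night library. The log2 fold change was 0.67 ± 0.07 (SE, n = 16 per phase) in hippocampus (edgeR, adjusted p = 7e-09) and 0.64 ± 0.10 in frontal cortex (edgeR, adjusted p = 7.2e-06).

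Tlr3, the endosomal receptor of double-stranded RNA that signals through Ticam1, had between 45.2 and 74.0 CPM at night (median 57.6) and between 64.1 and 91.2 CPM in day (median 77.6) in hippocampus. In frontal cortex it had between 52.5 and 83.2 CPM at night (median 62.2) and between 64.7 and 103 CPM in day (median 81.9). More day libraries cleared the night range in hippocampus (10 of 16) than in frontal cortex (6 of 16). The log2 fold change of Tlr3 was 0.47 ± 0.06 (SE, n = 16 per phase; edgeR, adjusted p = 8.3e-07) and 0.36 ± 0.07 (edgeR, adjusted p = 0.000147) in the same order.

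Tlr9, the endosomal receptor of unmethylated CpG DNA, was the member of this group that did not pass the test. Its range in hippocampus was 78.0 to 115 CPM at night (median 99.5) and 82.5 to 122 CPM in day (median 95.9), and in frontal cortex 65.5 to 122 CPM (median 87.9) and 78.7 to 119 CPM (median 97.3). The ranges of the phases lay over each other. Its log2 fold change was 0.05 (95% interval -0.07 to 0.17; edgeR, adjusted p = 0.518) in hippocampus and 0.07 (edgeR, adjusted p = 0.452) in frontal cortex.

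Among the surface receptors the widest change was that of Tlr4, which with Ly96 and Cd14 binds lipopolysaccharide. Tlr4 had between 49.1 and 86.1 CPM at night (median 68.8) and between 81.8 and 118 CPM in day (median 94.9) in hippocampus. The values in frontal cortex were 57.4 to 94.6 CPM (median 72.9) and 88.6 to 138 CPM (median 104). All but 3 day libraries in hippocampus and all but 4 in frontal cortex exceeded the highest night library. Its log2 fold change was 0.54 ± 0.07 (SE, n = 16 per phase; edgeR, adjusted p = 1e-07) in hippocampus and 0.50 ± 0.07 (edgeR, adjusted p = 4.5e-06) in frontal cortex.

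Tlr1 and Tlr6 each pair with Tlr2 to bind bacterial lipoproteins, Tlr1 for triacylated and Tlr6 for diacylated forms. Tlr6 had between 19.5 and 31.7 CPM at night (median 23.4) and between 27.0 and 35.5 CPM in day (median 29.5) in hippocampus, and between 21.8 and 36.1 CPM (median 26.4) and 25.1 and 41.4 CPM (median 32.7) in frontal cortex. In hippocampus 14 of 16 night libraries lay below the lowest day library and 3 of 16 day libraries above the highest night library. In frontal cortex these counts were 5 and 5 of 16. The log2 fold change of Tlr6 was 0.34 ± 0.06 (SE, n = 16 per phase; edgeR, adjusted p = 1.7e-05) in hippocampus and 0.23 ± 0.08 (edgeR, adjusted p = 0.0135) in frontal cortex. The call was lost in frontal cortex without replicate 2 (log2 fold change 0.16), and in both regions when libraries were scaled by their totals alone (0.18 and 0.17).

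Tlr1 had 19.5 to 41.4 CPM at night (median 24.1) and 20.2 to 35.6 CPM in day (median 26.5) in hippocampus, and 23.1 to 37.4 CPM (median 29.9) and 23.8 to 33.0 CPM (median 29.8) in frontal cortex. Its log2 fold changes of 0.09 (95% interval -0.07 to 0.26; edgeR, adjusted p = 0.38) and -0.04 (edgeR, adjusted p = 0.656) did not pass the test. Without replicate 3 the change of Tlr1 in hippocampus was 0.17 and passed it. Tlr2 had 37.2 to 51.6 CPM at night (median 44.4) and 35.0 to 60.05 CPM in day (median 47.1) in hippocampus, and 36 to 67.8 CPM (median 47.5) and 39.8 to 72.2 CPM (median 49.6) in frontal cortex. For Tlr2, 6 of 16 day libraries in hippocampus and 2 of 16 in frontal cortex lay above the highest night library. Below the lowest day library lay 0 and 3 of 16 night libraries. The log2 fold change of Tlr2 was 0.12 (95% interval -0.01 to 0.26; edgeR, adjusted p = 0.121) and 0.11 (edgeR, adjusted p = 0.372).

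Tlr5, the receptor of bacterial flagellin, had 14.7 to 31.4 CPM at night (median 24.0) and 21.6 to 30.1 CPM in day (median 24.0) in hippocampus. In frontal cortex Tlr5 had 21.3 to 39.0 CPM (median 27.7) and 20.8 to 32.4 CPM (median 25.3). Its log2 fold changes were 0.04 (95% interval -0.11 to 0.19; edgeR, adjusted p = 0.69) and -0.12 (edgeR, adjusted p = 0.204).

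**Figure D2:**
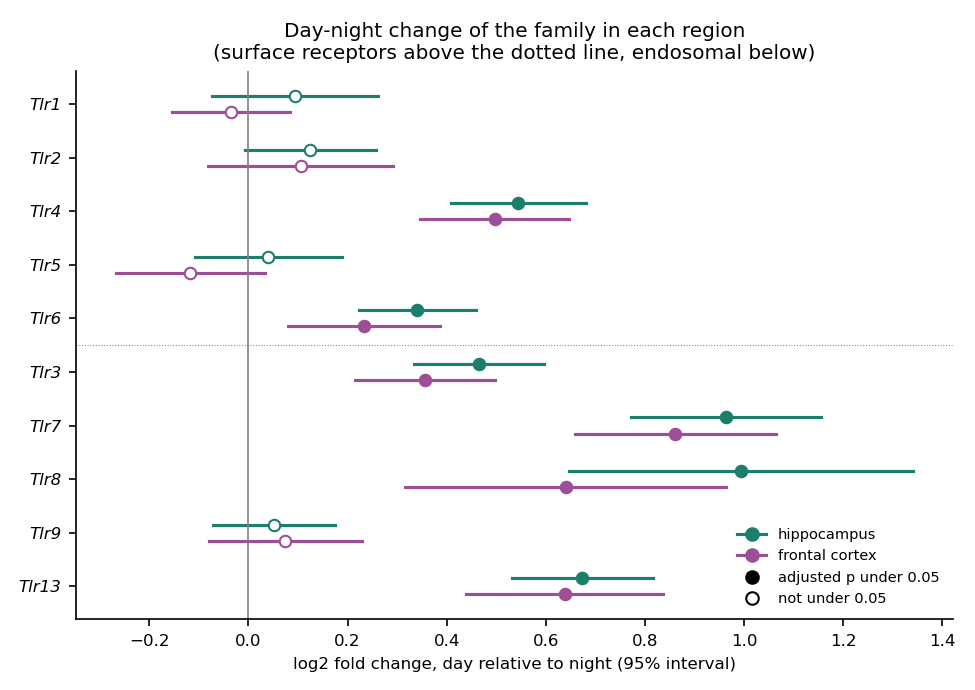
Log2 fold change of day relative to night with its 95% interval (x axis) for each receptor gene (y axis), hippocampus in green and frontal cortex in purple, filled where the adjusted p was under 0.05. The same 6 genes are filled in both regions, from Tlr6 at 0.34 and 0.23 up to Tlr8 at 0.99 in hippocampus and Tlr7 at 0.86 in frontal cortex.

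Whether the day-night change differed between the regions was tested for each receptor gene by an interaction term over all 64 libraries. No member passed, and none had an unadjusted p under 0.05 in edgeR or passed in DESeq2. Of all 16069 genes tested, 1.19% passed and 1587 had an unadjusted p under 0.05 in edgeR. The difference farthest from 0 was that of Tlr8, whose change was larger by 0.31 on the log2 scale in hippocampus (95% interval -0.16 to 0.78; edgeR, adjusted p = 0.75). For Tlr7 the difference was 0.06 (95% interval -0.21 to 0.34).

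Because the 2 genes of a ratio are read in the same library, it depends on the scaling of libraries only through the prior count. That count weighs most for Tlr8, which had the lowest counts. Of the pairs taken, only Tlr2 with Tlr1 and Tlr2 with Tlr6 are partners. The ratios were chosen after the values were seen, and 10 tests were made (2-sided permutation tests, 100000 resamples, Benjamini-Hochberg adjusted). The ratio of Tlr7 to Tlr9 was larger in day by 0.94 on the log2 scale in hippocampus and by 0.78 in frontal cortex (adjusted p = 1e-04 in both, the smallest p that the permutations can give before adjustment being 2e-05). The ratio of Tlr6 to Tlr1 was larger in day by 0.24 (permutation test, adjusted p = 0.0014) and 0.27 (adjusted p = 0.000467). Both genes carry the uncertainty of their shared sequence. Set against each other, Tlr2 and Tlr6 had a log2 ratio that changed by -0.23 from night to day in hippocampus (adjusted p = 0.0014) and differed by -0.13 in frontal cortex (adjusted p = 0.0706). The ratios of Tlr2 to Tlr1 (0.01 and 0.14, adjusted p = 0.953 and 0.113) and of Tlr7 to Tlr8 (-0.06 and 0.18, adjusted p = 0.777 and 0.335) did not pass the test. In frontal cortex the ratio of Tlr2 to Tlr1 passed without replicate 4 (0.21) and that of Tlr2 to Tlr6 without replicate 1 (-0.17).

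Levels of different genes were compared per kilobase of exon, with the day and night libraries of a region pooled. The order was alike in the regions: Tlr7 was highest, then Tlr13, Tlr9, Tlr2, Tlr4, Tlr3, Tlr1, Tlr6 and Tlr5, and Tlr8 was lowest. In hippocampus the mean level ran from 64.8 ± 23.3 CPM per kilobase for Tlr7 (SD, n = 32) through 38.7 ± 9.999 for Tlr13 and 28.3 ± 3.25 for Tlr9 down to 1.12 ± 0.503 for Tlr8. In frontal cortex the same genes had 72.4 ± 26.1, 43.0 ± 12.9, 27.6 ± 4.25 and 1.52 ± 0.556 CPM per kilobase. The neighbours Tlr2 and Tlr4 were not told apart over the pooled libraries. In hippocampus they had 15.5 and 14.8 CPM per kilobase (permutation test of the within-library difference, adjusted p = 0.0732). In frontal cortex they had 16.6 and 16.4 CPM per kilobase (permutation test, adjusted p = 0.506). Over the pooled libraries Tlr1 exceeded Tlr6 by 0.10 on the log2 scale in both regions (permutation test, adjusted p = 0.0128 and 0.013). Every other pair of neighbours differed at an adjusted p of 2.57e-05, with 18 pairs tested. As a share of the summed level per kilobase of the 10 genes, Tlr7 made up 27.3% ± 3.38 in night and 36.7% ± 2.61 in day libraries of hippocampus (SD, n = 16), and 28.8% ± 2.66 and 37.0% ± 3.12 in frontal cortex. The share of Tlr9 was 17.6% ± 2.11 and 12.3% ± 1.202 in hippocampus and 15.2% ± 1.43 and 11.4% ± 1.79 in frontal cortex.

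**Figure D3:**
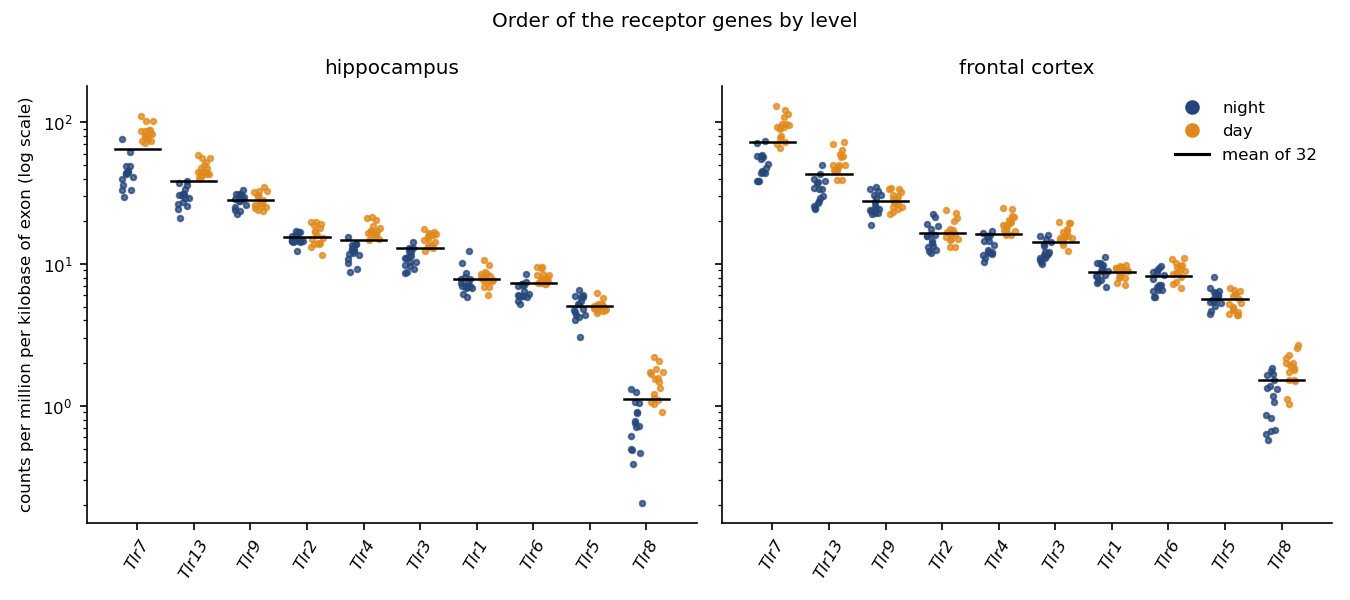
CPM per kilobase of exon in each library (y axis, log scale) for the receptor genes in the order of their mean level (x axis), night in blue and day in orange, with a line at the mean of 32 libraries, hippocampus at the left and frontal cortex at the right. Tlr7 stands at the top with 64.8 and 72.4 and Tlr8 apart at the bottom with 1.12 and 1.52. The lines of Tlr2 and Tlr4, means over both phases, are almost level.

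The regions were then compared, averaged over the phases, with libraries treated as unpaired since the labels do not tie them to animals. All hippocampal libraries precede those of frontal cortex in the numbering of the labels. Median total counts were 17.6 M in hippocampus and 13.4 M in frontal cortex. Any difference in how the libraries of the regions were handled cannot be told apart from region here. Tlr1, Tlr3, Tlr4, Tlr5, Tlr6 and Tlr8 were lower in hippocampus than in frontal cortex, and no receptor gene was higher. Of all genes tested 16.6% passed and 6.17% passed as lower in hippocampus. The widest difference was that of Tlr8, with a log2 fold change of -0.48 ± 0.12 (SE, n = 32 per region; edgeR, adjusted p = 0.0023), and the next was that of Tlr6, with -0.18 ± 0.05 (edgeR, adjusted p = 0.0063). Those of Tlr1, Tlr3, Tlr4 and Tlr5 lay between -0.16 and -0.15 with adjusted p between 0.023 and 0.0325. Tlr7 (-0.17, 95% interval -0.31 to -0.03, adjusted p = 0.0793), Tlr13 (-0.15, adjusted p = 0.0753), Tlr2 (-0.09, adjusted p = 0.262) and Tlr9 (0.04, adjusted p = 0.661) did not pass. Without replicate 3 only Tlr8 passed, with Tlr6 then at -0.15, Tlr1 at -0.14, Tlr3 at -0.13, Tlr5 at -0.12 and Tlr4 at -0.11, and in replicate 4 alone none did. Tlr1 (-0.16) and Tlr4 (-0.17) also missed the threshold without replicate 4 and Tlr5 (-0.19) without replicate 2, while Tlr13 (-0.19) passed without replicate 1. With library totals alone the median of all genes moved from 0.00 to -0.11, and 9 receptor genes then passed as lower in hippocampus. Of the markers, 3 of 12 for microglia (Siglech, Gpr34 and Fcrls) and 3 of 10 for border macrophages (Mrc1, F13a1 and Ms4a7) were lower in hippocampus as well and none was higher. With the border macrophage score as a covariate the difference of Tlr8 was -0.30 (adjusted p = 0.00252).

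The 4 condition labels were compared in each region to see whether receptor genes differed among them. No receptor gene passed in either region (edgeR, 3 degrees of freedom), where 0% of all genes passed in hippocampus and 0% in frontal cortex. At an unadjusted p under 0.05 there was no receptor gene in hippocampus and 1, Tlr7, in frontal cortex (edgeR, adjusted p = 0.72). Tlr7 had mean levels of 229 ± 59.5, 215 ± 60.1, 197 ± 25.8 and 195 ± 34.8 CPM (SD, n = 4) in the night groups Soci, Cogn, Ctr0 and Ctr1 of frontal cortex and of 436 ± 77.7, 426 ± 52.1, 333 ± 45.0 and 333 ± 64.4 CPM in the day groups. In hippocampus its night means were 181 ± 49.7, 203 ± 79.5, 174 ± 27.2 and 169 ± 16.8 CPM and its day means 373 ± 53.7, 360.3 ± 43.0, 352 ± 42.0 and 302 ± 11.7 CPM in the same order. The day mean exceeded the night mean of Tlr7 in all 4 conditions of both regions. Of the differences between pairs of conditions, the largest in hippocampus was that of Tlr8, higher by 0.55 on the log2 scale in Ctr0 than in Ctr1 (95% interval 0.05 to 1.05, edgeR, adjusted p = 1.0). In frontal cortex the largest was that of Tlr13, higher by 0.32 in Soci than in Ctr0 (95% interval 0.05 to 0.59, edgeR, adjusted p = 0.461).

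The day-night change was also fitted within each condition, with 4 libraries against 4. In hippocampus 4 receptor genes passed in Soci, where 8.08% of all genes did, 2 in Cogn (5.32%), 6 in Ctr0 (13.2%) and 7 in Ctr1 (12.5%). In frontal cortex 3 passed in Soci (6.51% of all genes), 5 in Cogn (5.86%), 1 in Ctr0 (5.47%) and 2 in Ctr1 (4.35%). All of these were higher in day. Tlr7 passed in each of the 8 comparisons, with log2 fold changes from 0.75 in Ctr0 of frontal cortex to 1.08 in Soci of hippocampus. Tlr13 passed in all 4 of hippocampus (0.56 to 0.77) and in Soci and Cogn of frontal cortex (0.64 and 0.84). Tlr1 passed in 1, Ctr1 of hippocampus, at 0.45 (edgeR, adjusted p = 0.0465).

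A test of whether the change differed among the 4 conditions found no receptor gene in either region, where 0% of genes in hippocampus and 0.00616% in frontal cortex passed. At an unadjusted p under 0.05 there were 2 receptor genes in hippocampus, Tlr1 and Tlr5, and 1 in frontal cortex, Tlr8. The changes of Tlr8 in frontal cortex were 1.43 in Soci, 0.98 in Cogn, 0.40 in Ctr0 and -0.20 in Ctr1 (edgeR, adjusted p = 0.921). Its night means there were 3.03 ± 0.637, 3.83 ± 1.90, 4.79 ± 1.67 and 5.36 ± 1.09 CPM (SD, n = 4) and its day means 8.09 ± 0.801, 7.48 ± 1.52, 6.40 ± 0.685 and 4.65 ± 0.921 CPM in the same order. The corresponding changes of Tlr8 in hippocampus lay between 0.91 and 1.08.

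**Figure D4:**
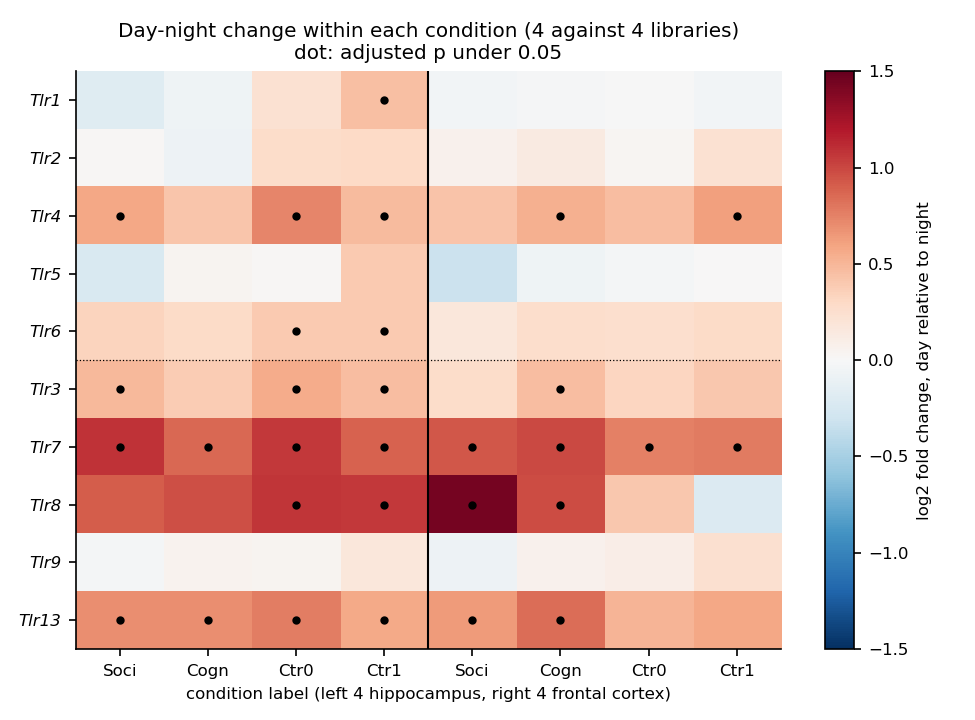
Log2 fold change of day relative to night (colour, blue below 0 and red above 0) of each receptor gene (rows) within each condition (columns, hippocampus at the left and frontal cortex at the right), with a dot where the adjusted p was under 0.05. Tlr7 carries a dot in each of the 8 columns, and Tlr8 in frontal cortex runs from 1.43 in Soci to -0.20 in Ctr1.

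The genes that work with the receptors were read from lists by role, and each count stands against the 23.4% of all genes higher and 18.8% lower in day in hippocampus and the 20.6% and 21.3% in frontal cortex. Of 6 ligand accessories tested in hippocampus 3 were higher and 2 lower in day, and of 5 in frontal cortex 3 were higher and 1 lower. Cd14, the coreceptor that hands lipopolysaccharide to Tlr4, had a median of 72.3 CPM at night and 96.8 CPM in day in hippocampus and a log2 fold change of 0.48 ± 0.08 (SE), and in frontal cortex 0.57 ± 0.09. Ly96, the lipopolysaccharide-binding partner of Tlr4, was also higher, by 0.43 ± 0.09 and 0.37 ± 0.09. Cd180, a relative of Tlr4 without a signalling domain, was lower (-0.32 ± 0.10 and -0.43 ± 0.08), though not past the threshold in hippocampus without replicate 4 (-0.25). Lbp, the lipopolysaccharide-binding protein, was lower in day, with -2.66 ± 0.41 in hippocampus, and under the filter in frontal cortex. Choroid plexus markers were lower in day in hippocampus too (8 of 8, with a summed median of 1641 CPM at night and 268 CPM in day), and with the 7 scores of other cell types as covariates the change of Lbp was 0.24. Of the receptors of mice outside the 10, Tlr12 did not pass (0.00 and -0.02) and Tlr11 was under the count filter, with group medians by phase and region from 0.437 to 0.629 CPM.

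Endosomal receptors depend on proteins that fold, carry and cut them. Of 9 genes with these roles 6 were higher in day in hippocampus and 7 in frontal cortex, and none was lower, against 23.4% and 20.6% of all genes higher. Hsp90b1, the chaperone of the family, changed by 0.38 ± 0.05 (SE) and 0.43 ± 0.07 on the log2 scale, and its cofactor Cnpy3 by 0.16 ± 0.05 and 0.23 ± 0.07. Slc15a4, a transporter of the endolysosome needed for Tlr7 and Tlr9 responses, changed by 0.35 ± 0.05 and 0.31 ± 0.04. Ctss, a protease that cuts endosomal receptors, changed by 0.29 ± 0.07 and 0.30 ± 0.10. Unc93b1, which carries the endosomal receptors from the endoplasmic reticulum, changed by 0.14 ± 0.04 (edgeR, adjusted p = 0.0092) and 0.16 ± 0.06 (edgeR, adjusted p = 0.031). Unc93b1 missed the threshold in hippocampus without replicate 1 (0.11) or 2 (0.06) and in frontal cortex without replicate 1 (0.16), 2 (0.12) or 3 (0.16), and its change was -0.02 in hippocampus with library totals alone. Cnpy3 missed it in hippocampus without replicate 1 (0.16), 2 (0.09) or 3 (0.09) and in frontal cortex without replicate 2 (0.19), as did Ctss there without replicate 1 (0.26) or 2 (0.23).

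Of 6 adaptors 4 were higher and 1 lower in day in hippocampus, and 2 were higher and 1 lower in frontal cortex. The 1 of 6 lower is near the share of all genes lower in day (18.8% and 21.3%). Myd88, the adaptor of all receptors of the family but Tlr3, changed by 0.24 ± 0.05 (SE) and 0.24 ± 0.08 on the log2 scale. Ticam2, the bridge from Tlr4 to Ticam1, changed by 0.29 ± 0.07 and 0.29 ± 0.05. Ticam1, through which Tlr3 signals, did not pass (-0.07 ± 0.05 and 0.06 ± 0.05). Tirap, which brings Myd88 to surface receptors, passed in hippocampus (0.13 ± 0.04) and not in frontal cortex (0.11 ± 0.05, edgeR, adjusted p = 0.066), as did Pik3ap1 (0.17 ± 0.05 and 0.11 ± 0.05). Sarm1, a TIR protein known mainly from neurons, was lower (-0.40 ± 0.14 and -0.39 ± 0.14). In hippocampus Tirap missed the threshold without any 1 of the 4 replicate numbers (0.08 to 0.12) and Pik3ap1 without replicate 1, 2 or 4 (0.06, 0.13 and 0.13). Ticam2 missed it there without replicate 1 (0.18), as did Myd88 in frontal cortex without replicate 2 (0.16). Sarm1 missed it without replicate 1 in hippocampus (-0.23) and without replicate 2 (-0.40) or 3 (-0.24) in frontal cortex. Of the neuronal markers 8 of 9 were lower in day in frontal cortex, against 21.3% of all genes. In hippocampus 2 of 9 were lower, near the 18.8% of all genes. With the scores of 7 other cell types the change of Sarm1 in frontal cortex was 0.45.

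Of 12 kinases and ubiquitin ligases 7 were higher and 2 lower in day in hippocampus and 4 and 3 in frontal cortex. The shares lower are near those of all genes (18.8% and 21.3%). Irak4, the first kinase after Myd88, changed by 0.32 ± 0.06 (SE) and 0.24 ± 0.05 on the log2 scale, Tab2 by 0.32 ± 0.05 and 0.25 ± 0.04 and Peli1 by 0.26 ± 0.04 and 0.15 ± 0.04. Traf3, a ubiquitin ligase on the way to interferon, was lower, with -0.35 ± 0.06 and -0.42 ± 0.05. Of 4 interferon regulatory factors 3 were higher in each region, Irf3 (0.18 and 0.14), Irf5 (0.26 and 0.25) and Irf8 (0.27 and 0.21). Of 8 negative regulators 2 were higher and 1 lower in hippocampus and 1 was higher in frontal cortex, counts from which, beside the shares of all genes, nothing is read about this list. Among them Rnf216 was higher in both (0.19 and 0.13), Tnfaip3 (0.14) was higher and Sigirr (-0.44) lower in hippocampus, and Cyld did not pass (0.05 and -0.06). In frontal cortex Tnfaip3 had 0.05 and Sigirr -0.41, and the change did not pass as different between the regions for either (0.05, 95% interval -0.09 to 0.18, adjusted p = 0.895 for Tnfaip3, and -0.07, interval -0.58 to 0.44, adjusted p = 0.966 for Sigirr by edgeR's interaction term). Several of these small changes missed the threshold when a replicate number was left out, namely Irf3 without replicate 2 (0.11 in both regions) and, in hippocampus, Rnf216 without replicates 1, 2 or 4 (0.09, 0.14 and 0.15), Tnfaip3 without the same numbers (0.07, 0.08 and 0.13) and Sigirr without replicate 1 (-0.45) or 2 (-0.34).

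Cell type markers moved between the phases along with the receptor genes. Microglial markers were higher in day, 9 of 12 in hippocampus and 6 of 12 in frontal cortex, with summed medians of 15501 CPM at night and 18032 CPM in day in hippocampus and of 16025 and 19825 CPM in frontal cortex. Border macrophage markers were higher too, 10 of 10 and 6 of 10, with summed medians of 182 and 356 CPM in hippocampus (ranges 110.2 to 241 CPM and 213 to 446 CPM) and of 243 and 404 CPM in frontal cortex (ranges 133 to 348 CPM and 233 to 491 CPM). Astrocyte markers were lower in day, 6 of 7 in each region, with 1 higher in hippocampus, where 18.8% of all genes were lower, against 21.3% in frontal cortex. Oligodendrocyte markers were lower in 6 and 3 of 7, and endothelial markers in 4 and 0 of 7. Of the markers of neutrophils and monocytes that passed the filter, 1 of 4 was higher and 1 lower in hippocampus and none changed in frontal cortex. Of 3 lymphocyte and dendritic cell markers 1 was higher in hippocampus. Genes of the response to dissociation were more often higher in day in hippocampus, 6 higher and 1 lower of 10, against 23.4% and 18.8% of all genes. In frontal cortex 2 of 10 went each way, near the 20.6% and 21.3% of all genes. Base composition differed among the receptor genes, from 39.4% GC in Tlr4, 40.0% in Tlr3, 40.1% in Tlr8 and 41.0% in Tlr7 to 56.2% in Tlr9, and over all genes the day-night change had a Pearson r with GC content of -0.246 in hippocampus and -0.142 in frontal cortex.

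The day-night fit was repeated with a correction for base composition and length, with the microglial score and with the border macrophage score. It was also repeated with the scores of 7 cell types other than microglia at once. The 7 were border macrophages again, neutrophils and monocytes, neurons, astrocytes, oligodendrocytes, endothelial cells and choroid plexus. The fit with 7 scores is thus not separate from that with the border macrophage score. No other list was used as a term by itself, and the part of the dissociation genes was not tested. A correction for GC content and length left all 6 calls in both regions, where 42.8% and 45% of all genes passed, with Tlr7 at 0.87 and 0.83. With the score of the microglial markers, where 21.6% and 25% of all genes passed, Tlr7, Tlr8, Tlr13, Tlr4 and Tlr3 passed as higher in day in both regions, with Tlr7 at 0.74 and 0.66, and Tlr6 did not (0.13 and 0.03). On that scale Tlr9 passed as lower in day (-0.20 and -0.14), and in frontal cortex Tlr2 (-0.18) and Tlr5 (-0.21) did too. With the score of the border macrophage markers, where 8.44% and 16.3% of all genes passed, Tlr7 (0.62 and 0.67), Tlr13 (0.43 and 0.49) and Tlr4 (0.27 and 0.42) passed in both regions. Tlr3 then passed in frontal cortex (0.33) and not in hippocampus (0.23, edgeR, adjusted p = 0.0954). The change of Tlr8 was 0.05 ± 0.16 (SE) and 0.00 ± 0.13 with this term and did not pass the test, where it was 0.99 and 0.64 without the term. With the scores of 7 other cell types at once, where 1.37% and 20% of all genes passed, Tlr7 passed in both regions (0.62 and 0.78), and Tlr4 (0.48) and Tlr13 (0.54) in frontal cortex.

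**Figure D5:**
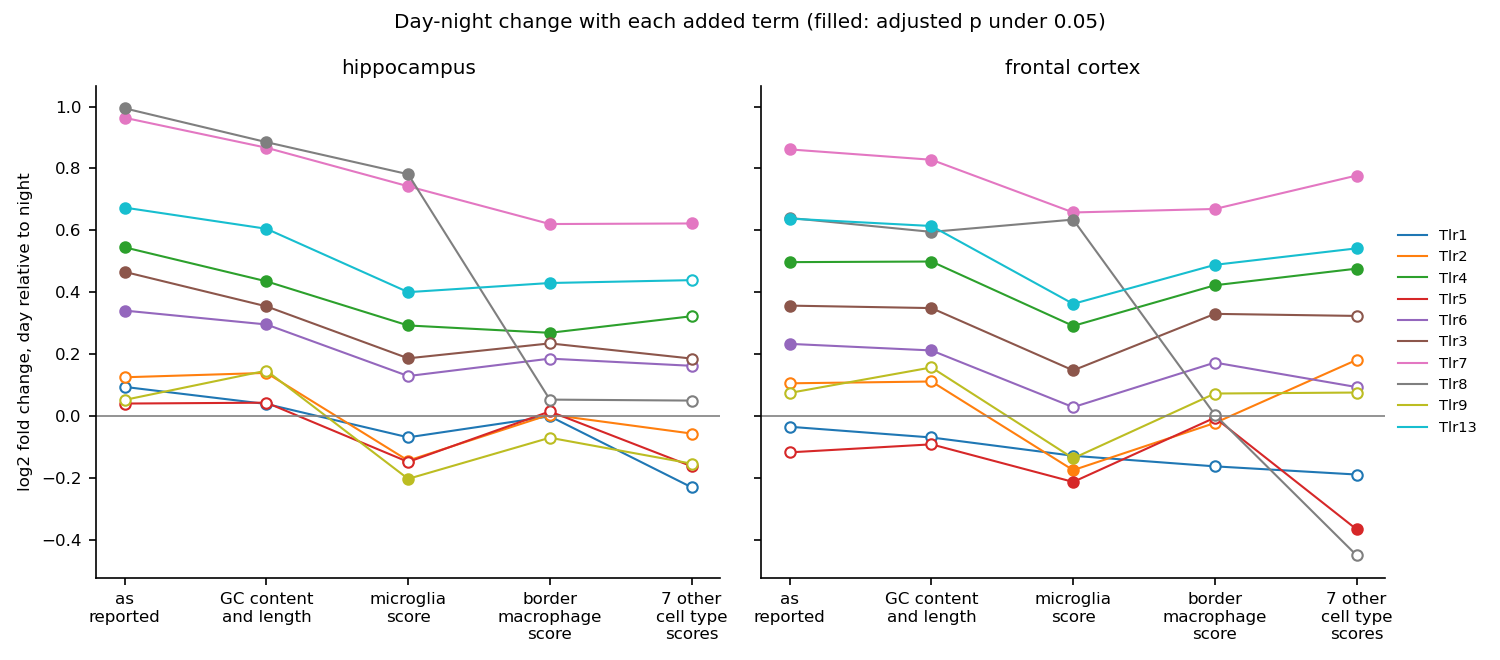
Log2 fold change of day relative to night (y axis) of each receptor gene (lines) as reported and with each added term (x axis), hippocampus at the left and frontal cortex at the right, filled where the adjusted p was under 0.05. Tlr7 stays between 0.62 and 0.96 in hippocampus and between 0.66 and 0.86 in frontal cortex, while Tlr8 drops to 0.05 and 0.00 with the border macrophage score.

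How receptor genes varied among libraries of a group was described by correlations of log2 CPM centred on the 16 group means, over 64 libraries that share cell makeup and depth among genes. Among the receptor genes the highest was between Tlr4 and Tlr13 (r = 0.91) and the lowest between Tlr5 and Tlr8 (r = 0.01). Of 10940 genes ranked, those most like Tlr7 were Abca9 (r = 0.93) and March1 (r = 0.92), those most like Tlr13 were Serinc3 (0.96) and Cd53 (0.95), and those most like Tlr4 were Tgfbr1 (0.93) and Fam91a1 (0.93). For Tlr3 they were Cttnbp2nl (0.92) and Adam10 (0.91), and for Tlr6 Ggta1 (0.89) and Pik3cg (0.89). Tlr9 was most like Laptm5 (0.93) and Timp2 (0.93), and Tlr2 most like Atp6ap1 (0.93) and Lamp1 (0.93). Those most like Tlr8 were the scavenger receptor Msr1 (0.82) and Ms4a7 (0.81), the latter a gene of the border macrophage list. The nearest genes were less alike for Tlr1, with Atp8a1 (0.79) and Xpo7 (0.79), and for Tlr5, with Upk1b (0.70) and Bank1 (0.69).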

How the data were processed

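The values deposited by the authors were raw counts per gene for 64 libraries. Per the labels and the methods, ribosomal RNA was depleted, single-end reads were mapped to GRCm38.p5 with STAR 2.7.3a, and genes were counted with featureCounts of Subread 2.0.0. Whether counting used strand, and how it treated reads that map to several places, is not given in the sources used here. Of the 49671 genes, 49412 were matched to GENCODE M21 by Ensembl ID. Totals ran from 10.2 to 84.5 M per library. Replicates were compared in 96 pairs, none of which agreed within sampling noise (chi-square divided by its degrees of freedom at least 7.65).

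Tests on counts were those of edgeR 4.0.16 (quasi-likelihood F, run in R 4.3.3) after TMM scaling and filterByExpr, with Benjamini-Hochberg adjustment over all genes tested and a threshold of 0.05. Regions were fitted separately for phase and conditions, and together for region and its interaction with phase. CPM were scaled by TMM over all libraries, with 2 as the prior count on the log2 scale. Order and ratios went through permutation tests in scipy 1.17.1. A marker score is the mean of a list's centred log2 CPM. Alternatives covered scaling, filter, DESeq2 1.42.0, a replicate block, condition, replicates left out, replicate 4 alone (the number with the deepest hippocampal libraries) and marker scores. The GC and length correction, the border macrophage score alone and the ratios were added after the data were seen.

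All 10 receptor genes were named, as were Cd14, Ly96, Unc93b1, Myd88, Tirap and Ticam1, the 3 genes of lowest p in either region in each pathway list, and the 2 genes of highest centred correlation with each receptor gene. The receptor genes and the lists were chosen with earlier results of these data known. In simulated libraries 200 genes, none drawn from those of lowest level, had a fold of 2. The fits recovered 199 in hippocampus, 197 in frontal cortex, 199 for region and 188 for its interaction with phase. They also called 7, 10, 12 and 3 unchanged genes in the same order. Most changes of the receptor genes were smaller than this fold, and recovery at their size was not measured.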

Additional observations from a re-analysis of the deposited data

Results flagged for a closer look

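In each of the 160 sets of 4 libraries (10 receptor genes in 16 groups) the highest and lowest library were examined for a gap to the others larger than the share of the range that Dixon's test allows at 95%. Of these sets 13 had such a library, where chance would give about 8. Tlr7 was at 452 CPM in replicate 2 of hippocampus Day Soci against 334 to 353 CPM in the others, and Tlr13 was at 250.3 CPM in the same library against 186 to 193 CPM. Tlr13 was at 242 CPM in replicate 2 of hippocampus Day Cogn against 185 to 191 CPM, and Tlr2 at 45.96 CPM there against 42.0 to 42.5 CPM. In replicate 3 of frontal cortex Day Ctr1, Tlr4 was at 136 CPM against 94.2 to 101 CPM and Tlr3 at 101 CPM against 74.3 to 76.5 CPM.

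In replicate 4, Tlr2 was at 50.4 CPM in hippocampus Night Ctr0 against 43.6 to 44.7 CPM and at 56.2 CPM in frontal cortex Night Ctr1 against 39.9 to 42.2 CPM. Also in replicate 4, Tlr9 was at 122 CPM in frontal cortex Night Cogn against 78.4 to 81.9 CPM, Tlr1 was at 26.5 CPM in frontal cortex Day Cogn against 29.7 to 30.3 CPM, and Tlr4 was at 81.8 CPM in hippocampus Day Ctr1 against 94.7 to 95.5 CPM. Tlr4 was at 87.7 CPM in replicate 3 of frontal cortex Night Ctr0 against 65.1 to 67.8 CPM, and Tlr6 was at 26.6 CPM in replicate 1 of hippocampus Night Ctr1 against 22.3 to 22.8 CPM. No library was left out for these gaps, and a cause was not tested.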

How the results depend on the processing

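The 6 receptor genes higher in day in hippocampus became 1 (Tlr7) in replicate 4 alone, 1 (Tlr7) with 7 other cell type scores and 3 with the border macrophage score, and the 6 in frontal cortex became 0 in replicate 4 alone, where 8 libraries remained. Leaving out each replicate number in turn gave 6 to 7 in hippocampus and 5 to 6 in frontal cortex. For the region difference, leaving out replicates gave 1 to 7 receptor genes (1 without replicate 3), replicate 4 alone gave 0, and the microglia and border macrophage scores gave 3 each. The region by phase test and the condition tests gave 0 receptor genes under every alternative run. Median-of-ratios scaling, DESeq2 where run, no count filter and condition as a term kept the 6 day-night genes; for the region, no count filter gave 5. With library totals alone the median change of all genes in hippocampus moved from 0.02 to -0.14.

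The following log2 fold changes had the opposite sign to the reported value, where one of them passed the threshold. With the microglia score Tlr9 was at -0.20 in hippocampus and -0.14 in frontal cortex, Tlr2 was at -0.18 in frontal cortex, Cnpy3 at -0.022 and Tnfaip3 at -0.026 in hippocampus, and Unc93b1 at -0.034 and -0.014. With 7 other cell type scores Cnpy3 was at -0.016, Lbp at 0.24, Myd88 at -0.013, Pik3ap1 at -0.011, Tirap at -0.018, Tnfaip3 at -0.018 and Unc93b1 at -0.12 in hippocampus, and Tlr8 was at -0.45 and Sarm1 at 0.45 in frontal cortex. With library totals alone Tirap was at -0.030, Tnfaip3 at -0.014 and Unc93b1 at -0.025 in hippocampus. In replicate 4 alone Cnpy3 was at -0.011 in hippocampus, and Myd88 at -0.038 and Unc93b1 at -0.036 in frontal cortex. The cause was not tested. Over all alternatives of single receptor genes 534 values stayed on their side of the threshold, of which 485 kept their sign and 49, past the threshold neither as reported nor in the alternative, changed it. A further 53 lost the call and 9 gained it.

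The counts over all genes behind the shares moved by over 1.5 times in several settings. The 6550 of hippocampus became 4293 with library totals alone, 4319 without replicate 1, 3353 with the microglia score, 1311 with the border macrophage score, 213 with 7 other scores and 118 in replicate 4 alone. The 6266 of frontal cortex became 4065, 3941 (without replicate 2), 3750, 2436, 2992 and 0 in the corresponding settings. The 2667 for region became 1322 without replicate 2, 1382 without replicate 3 and 0 in replicate 4 alone, and the 191 for region by phase ranged from 0 to 2628. The 0 genes for conditions in hippocampus became 3862 with library totals alone and 328 without replicate 1, and was at most 2 in the other settings run.

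Same-numbered day and night libraries deviated together (r over 0.1) in 4 of 16 pairs in hippocampus and 10 of 16 in frontal cortex. Pairs of unlike numbers did so in 19 of 48 and 14 of 48. Same-numbered libraries of the regions did so in 12 of 32 pairs, and those of unlike numbers in 37 of 96. The numbers were not taken to pair the samples, though in frontal cortex same-numbered day and night libraries deviated together more often. Whether both regions came from the same animals is not in the labels, so pairing by animal could not be used. With a replicate block the day-night counts and the region count each stayed at 6 receptor genes. Ranking by the median over libraries placed Tlr4 above Tlr2 in frontal cortex. No receptor gene was under the filter, so the test planned for such genes was not needed. Tlr8, with as few as 8 counts in a library, had the widest intervals.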
